A study of Mus with 4 samples.

Results

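The atypical chemokine receptor genes Ackr1, Ackr2, Ackr3 and Ackr4 were examined in RNA-seq read counts of liver sinusoidal endothelial cells (LSECs), which form the lining of the liver sinusoids. The set comprised 4 of the 54532 Ensembl gene identifiers counted, taken by identifier: ENSMUSG00000037872 (Ackr1), ENSMUSG00000044534 (Ackr2), ENSMUSG00000044337 (Ackr3) and ENSMUSG00000079355 (Ackr4). The set was chosen by the level of Ackr1, which was about 6-fold higher in the knockout in these same libraries, and was filled up with the rest of the family. The changes between genotypes are therefore given as a description, without a test. There were 2 LSEC libraries of mice lacking Pofut1, which the series title places in the endothelium (P1KO, libraries KO1 and KO3), and 2 libraries of control mice (CTL, libraries CTL1 and CTL2). Mice of both groups had received carbon tetrachloride (CCl4), a liver toxin, so no uninjured liver was compared. POFUT1 is the enzyme that adds fucose to the EGF-like repeats of Notch receptors and of other proteins. The driver of the deletion, the strain and age of the mice, and any pooling of animals are not stated by the labels.

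Chemokine receptors of the conventional kind signal through G proteins and steer migrating leukocytes. The atypical receptors bind chemokines without that coupling, and take up, transport or present them, which shapes how much chemokine is free around a vessel. ACKR1, also known as the Duffy antigen, binds many inflammatory chemokines of the CC and CXC classes and is known from red blood cells and from the endothelium of venules, where it carries chemokines across the vessel wall. ACKR2, formerly D6, removes inflammatory CC chemokines and is known from lymphatic endothelium. ACKR3, formerly CXCR7, takes up CXCL12 and CXCL11 and is found in several types of endothelium. ACKR4, formerly CCRL1, removes CCL19, CCL21 and CCL25, the chemokines that guide cells carrying CCR7 or CCR9.

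The libraries held between 17464769 and 17918834 counts. The label for cell type is LSECs, but the RNA extraction text gives heart ventricles as the tissue, and the identity of the cells, the loss of Pofut1 and the content of red cells, lymphatic endothelium or leukocytes were not checked, because the identifiers of the table were matched to no symbol outside the 4 receptors. The P1KO libraries differed more from each other than the CTL libraries did. The biological coefficient of variation, the spread between libraries beyond read counting, was 12.1% in P1KO and 3.23% in CTL. Both pairs differed by more than read sampling, with a chi-square per gene of 10.3 in P1KO and 2.07 in CTL, where sampling alone gives a value near 1. Whether the libraries of 1 genotype are separate mice is not stated, and their spread may be technical.

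In the RefSeq annotation of GRCm38.p6, the assembly that mm10 corresponds to, Ackr1 lies on chromosome 1 from 173331886 to 173333503. Ackr3 lies on the same chromosome, 83.1 Mb away, from 90203980 to 90215724. Ackr2 lies on chromosome 9 from 121898355 to 121911075, and Ackr4 on chromosome 9 from 104097682 to 104126643, 17.8 Mb from Ackr2. Of the receptors that were higher in P1KO, Ackr1 and Ackr3 lie on chromosome 1 and Ackr2 on chromosome 9. Whether position bears on any of these changes was not tested. Of the Ackr1 span, 99.63% was shared with the annotated span of Cadm3, which encodes a cell adhesion molecule and runs from 173331892 to 173368139. The whole Ackr4 span lay within that of Acad11, an acyl-CoA dehydrogenase gene that runs from 104063724 to 104127656. The spans of Ackr2 and Ackr3 overlapped no other annotated gene. These overlaps are of whole RefSeq gene spans, introns included, and the overlap of exons was not examined. The strand setting of the counting is not given in the sources used here. If counted stretches are shared by Ackr1 and Cadm3, or by Ackr4 and Acad11, their reads may have been dropped or counted for either gene. The part of this in the values of Ackr1 and Ackr4 was not tested.

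Ackr1, the venular and red-cell receptor, was far higher in P1KO LSECs than in CTL LSECs. It had 3821 reads in KO1 and 3735 in KO3, against 625 in CTL1 and 650 in CTL2. Scaled to library size, these were 217 and 210 CPM (counts scaled to a common library size, with TMM) in KO1 and KO3, against 35.6 and 36.4 CPM in CTL1 and CTL2. The libraries of each genotype lay close together, and both P1KO libraries stood well above both CTL libraries. The mean level was 213 ± 5.15 CPM in P1KO and 36.0 ± 0.563 CPM in CTL (SD, n = 2 each). The log2 fold change was 2.57 ± 0.06 (SE from edgeR), or 5.93-fold. Each of the 4 possible pairs of a P1KO and a CTL library gave a ratio between 5.77 and 6.10. In bulk libraries, a larger share of cells that express a gene and more RNA per expressing cell cannot be told apart.

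The step between genotypes, on which Ackr1 was chosen, was much wider than the steps within them. The level of Ackr1 in KO3 was 0.966 times that in KO1, with a 95% interval of 0.924 to 1.01, and in CTL2 it was 1.02 times that in CTL1, with an interval of 0.915 to 1.14 (exact binomial intervals, which cover counting error only). Neither pair of libraries was thus resolved by counting at this depth. On the log2 scale, KO3 differed from KO1 by -0.05 for Ackr1, whereas the median absolute difference among 500 genes of like abundance was 0.08. CTL2 differed from CTL1 by 0.03, and the median absolute difference among the same genes was 0.04. Both differences for Ackr1 were smaller than those medians.

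**Figure D1:**
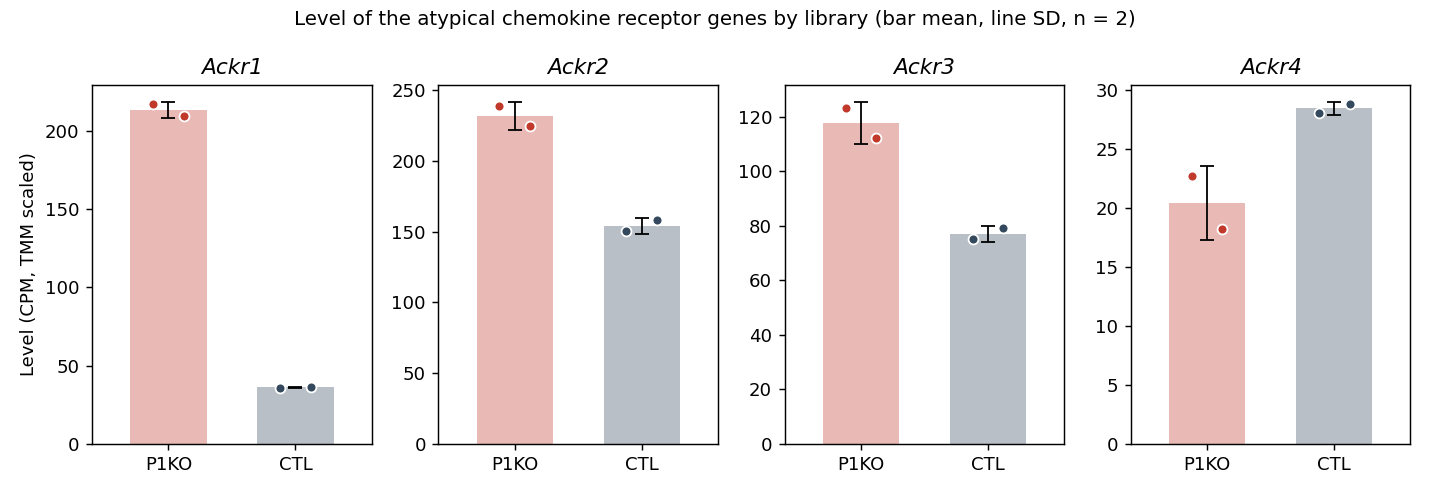
Level of each receptor gene in CPM (TMM scaled, linear axis from 0, its own scale in each panel), with P1KO on the left and CTL on the right; points are libraries, bars are means and lines are SDs of 2 libraries. Ackr1 averaged 213 CPM in P1KO and 36.0 CPM in CTL, Ackr2 and Ackr3 were higher in P1KO by smaller steps, and Ackr4 was lower.

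Ackr2, the scavenger of inflammatory CC chemokines, was also higher in P1KO, by a smaller factor. It had 4204 reads in KO1 and 3999 in KO3, against 2640 in CTL1 and 2828 in CTL2. The scaled levels were 239 and 225 CPM in the P1KO libraries and 150 and 158 CPM in the CTL libraries. The lowest pairwise ratio of a P1KO to a CTL library was 1.42, the highest 1.59. The mean was 232 ± 10.05 CPM in P1KO and 154 ± 5.64 CPM in CTL (SD, n = 2 each). Its log2 fold change was 0.59 ± 0.06 (SE from edgeR), which is 50.2% more. The level of Ackr2 in KO3 was 0.941 times that in KO1, with a 95% interval of 0.900 to 0.982 (exact binomial), so the P1KO libraries differed beyond counting error. The log2 difference of KO3 from KO1 was -0.09, against a median absolute difference of 0.08 among 500 genes of like abundance, and that of CTL2 from CTL1 was 0.07, against 0.03. Both differences of Ackr2 were larger than those medians, in P1KO only narrowly. The level in CTL2 was 1.05 times that in CTL1, with an interval of 0.998 to 1.11, so counting did not resolve the CTL libraries.

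Ackr3, the receptor that takes up CXCL12, changed by almost the same factor as Ackr2. It had 2168 reads in KO1 and 1997 in KO3, against 1318 in CTL1 and 1415 in CTL2. These reads correspond to 123 and 112 CPM in P1KO, and 75.1 and 79.2 CPM in CTL. Both P1KO libraries were above both CTL libraries, with pairwise ratios between 1.42 and 1.64. Its mean level was 118 ± 7.77 CPM in P1KO and 77.1 ± 2.94 CPM in CTL (SD, n = 2 each). The log2 fold change was 0.61 ± 0.07 (SE from edgeR), which is 52.5% more. For Ackr3, KO3 stood at 0.911 times KO1, with a 95% interval of 0.857 to 0.968 (exact binomial), so the P1KO libraries differed beyond counting error, by far less than the genotypes did. Its log2 difference of KO3 from KO1 was -0.13, against a median absolute difference of 0.08 among genes of like abundance. That of CTL2 from CTL1 was 0.08, against 0.04, so both differences of Ackr3 were also larger than those medians. The level of Ackr3 in CTL2 was 1.06 times that in CTL1, with an interval of 0.978 to 1.14, so counting did not resolve the CTL libraries.

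Ackr4, the scavenger of CCL19, CCL21 and CCL25, went the other way and had the fewest reads. It had 399 reads in KO1 and 324 in KO3, against 493 in CTL1 and 515 in CTL2. On the scaled level this was 22.7 and 18.2 CPM in P1KO and 28.1 and 28.8 CPM in CTL. Both P1KO libraries were below both CTL libraries, but KO1 stood nearer to the controls than KO3 did. The mean was 20.4 ± 3.16 CPM in P1KO and 28.5 ± 0.535 CPM in CTL (SD, n = 2 each), and the log2 fold change was -0.48 ± 0.12 (SE from edgeR). The level of KO3 was 0.803 times that of KO1, with a 95% interval of 0.691 to 0.932 (exact binomial). KO3 and KO1 differed by -0.31 on the log2 scale, against a median absolute difference of 0.11 among 500 genes of like abundance, and CTL2 and CTL1 by 0.04, against 0.08, so Ackr4 varied more than the median gene in P1KO and less in CTL. The change was -0.33 without KO3 and -0.64 without KO1 on the log2 scale, so its direction held and its size depended on the P1KO library.

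The 4 genes together drew 10592 reads in KO1 and 10055 in KO3, against 5076 in CTL1 and 5408 in CTL2. Their summed mean was 583 CPM in P1KO and 296 CPM in CTL, 1.97 times as much. Of the net gain of 287 CPM, 61.7% came from Ackr1, 26.9% from Ackr2, 14.1% from Ackr3 and -2.79% from Ackr4. A read count grows with transcript length, and transcript lengths were not used here, so these shares describe reads and do not rank the genes by molecules. The make-up of the reads shifted accordingly. Ackr1 supplied 36.1% and 37.1% of the reads of the family in KO1 and KO3, against 12.3% and 12.02% in CTL1 and CTL2. The share of Ackr2 was 39.7% and 39.8% in the P1KO libraries, against 52.0% and 52.3% in the CTL libraries, although its own level was higher in P1KO. That of Ackr4 was 3.77% and 3.22% in P1KO, against 9.71% and 9.52% in CTL.

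**Figure D2:**
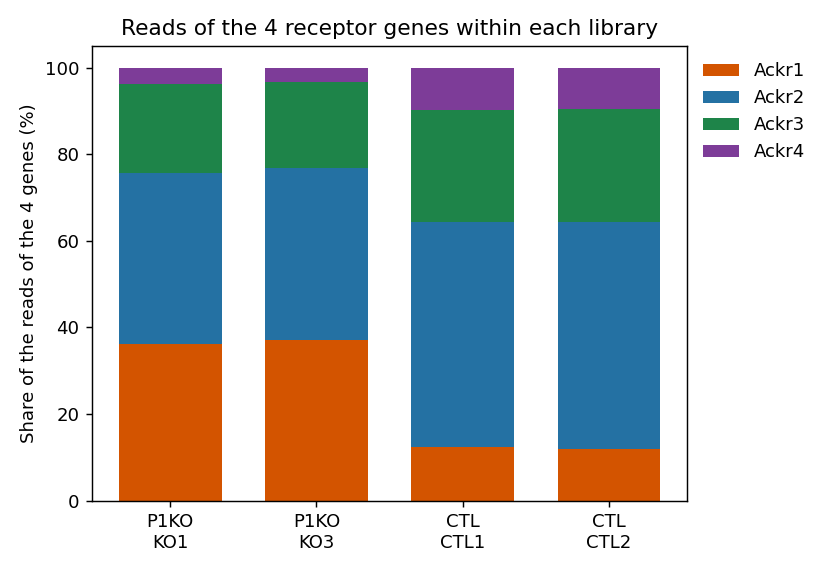
Share of the reads of the 4 receptor genes that each gene supplied in each library, in percent, with the P1KO libraries on the left and the CTL libraries on the right. Ackr1 made up 36.1% and 37.1% in P1KO and 12.3% and 12.02% in CTL, and the remaining genes filled less of the bar in P1KO.

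Ratios of reads between members within a library need no scaling between libraries, and a change in such a ratio is free of transcript length. The ratio of Ackr2 to Ackr3 reads was 1.939 in KO1 and 2.003 in KO3, against 2.003 in CTL1 and 1.999 in CTL2. All of these lie within the 95% interval of KO1, which ran from 1.84 to 2.04 (exact binomial), so the libraries differed in this ratio by less than its counting error. The ratio of Ackr1 to Ackr2 was 0.909 and 0.934 in KO1 and KO3, against 0.237 and 0.230 in CTL1 and CTL2. Reads of Ackr1 thus came close to those of Ackr2 in number in both P1KO libraries and stayed far below them in both CTL libraries. For Ackr2 to Ackr4 the ratio was 10.5 and 12.3 in the P1KO libraries, against 5.35 and 5.49 in the CTL libraries, so Ackr2 and Ackr4 were farther apart in both P1KO libraries.

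Beside all genes, Ackr1 lay near the top of the range and the other receptors within it. Among 15510 tested genes, whose median log2 change was -0.01, 45 were higher by at least as much as Ackr1, itself included, which is 0.29% of them. Of the 500 genes of nearest abundance, between 111 and 140 CPM, 1 was as far up. For Ackr2 and Ackr3 the numbers of genes up by at least as much were 924 (5.96%) and 859 (5.54%), and 2350 genes (15.2%) were as far down as Ackr4. Over the whole table, the edgeR quasi-likelihood fit called 19.5% of the tested genes, 9.68% as higher and 9.84% as lower in P1KO (Benjamini-Hochberg adjusted p below 0.05). Ackr1 was chosen on this same contrast and the other receptors were added as its family, so no calls are given for the set.

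**Figure D3:**
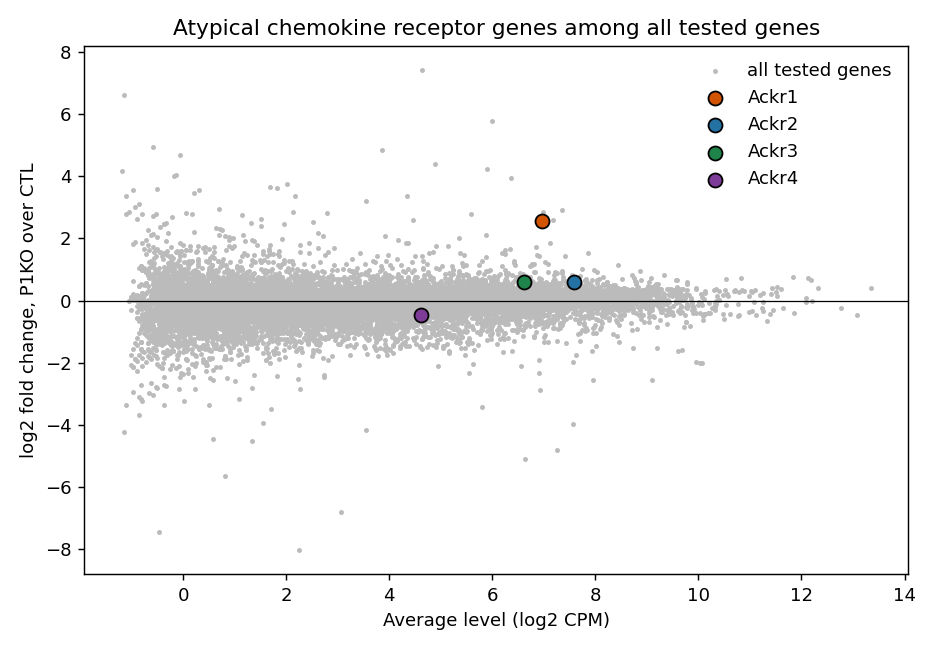
The log2 fold change of P1KO over CTL against the average level in log2 CPM for the 15510 tested genes (grey points), with the 4 receptor genes in colour. Ackr1 lies at 2.57, above nearly all genes of its abundance, Ackr2 and Ackr3 lie at nearly the same height at 0.59 and 0.61, and Ackr4 lies at -0.48.

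Since the genotypes did not overlap for any of the 4 receptors, leaving out a library could change the size of a difference and not its direction. With so few libraries a lack of overlap can arise by chance, and its share among all tested genes was not counted. It is therefore not read as a trait of the receptors. Leaving out each library in turn gave log2 changes of 2.54 to 2.59 for Ackr1, 0.54 to 0.63 for Ackr2, 0.54 to 0.68 for Ackr3 and -0.64 to -0.33 for Ackr4.

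**Figure D4:**
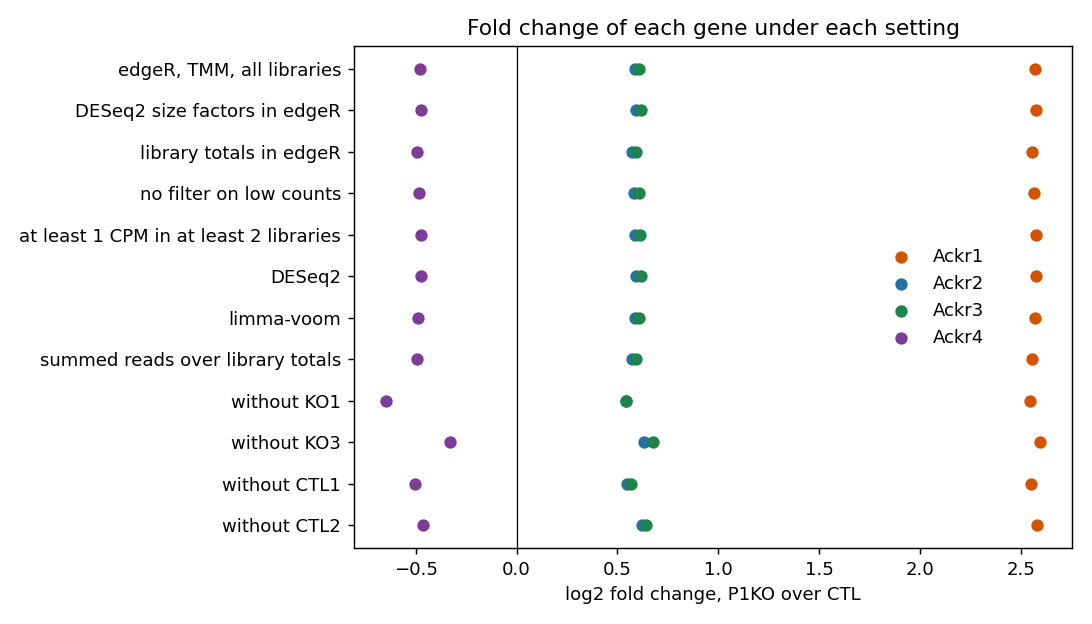
The log2 fold change of P1KO over CTL for each receptor gene (colours) under each way of scaling, filtering, testing or pooling the counts and with each library left out. Ackr1 stays between 2.54 and 2.59, and Ackr4 spreads most, between -0.64 and -0.33.

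The genes whose level followed each receptor most closely were sought among 11261 other genes that reached 5 CPM in the higher group. Likeness was the root mean square difference of log2 CPM over the 4 libraries, each gene centred on its own mean, so a value of 0 is an identical pattern. Few genes resembled Ackr1. The nearest was ENSMUSG00000058126, at a difference of 0.08, with 4112 and 4700 reads in KO1 and KO3, against 718 and 743 in CTL1 and CTL2. The next was ENSMUSG00000116581, at 0.14, with 592 and 741 reads in the P1KO libraries, against 115 and 105 in the CTL libraries. The 5 nearest lay at 0.08 to 0.22 from Ackr1, with log2 changes of 2.59 to 2.92, and 1 gene lay within 0.1. Around the other receptors the field was crowded, with 297 genes within 0.1 of Ackr2, 229 of Ackr3 and 327 of Ackr4. The 3 nearest to each of them lay within 0.02, at log2 changes of 0.57 to 0.62 for Ackr2, 0.58 to 0.64 for Ackr3 and -0.49 to -0.46 for Ackr4. The pattern nearest to Ackr4 was that of ENSMUSG00000060591, with 9044 and 7313 reads in KO1 and KO3, against 11216 and 11741 in CTL1 and CTL2. With Ackr3 counted among the candidates, it took place 6 of 11264 by likeness to Ackr2, at a difference of 0.02, whereas Ackr1 lay 0.99 from Ackr2 and Ackr4 0.54. Genes were compared over 4 libraries that fall into 2 groups, so likeness here mostly reflects the size of the change between genotypes. The table pairs no symbols with these identifiers, so the genes are given by identifier.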

How the data were processed

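The authors deposited 1 table of raw read counts for 54532 Ensembl mouse genes in 4 libraries, and 0 sample columns were left out. Build mm10 and the tools HISAT2 2.0.5, featureCounts 1.5.0-p3, fastp and CASAVA are named per the submitters' processing notes. Of the columns, KO1, CTL1 and CTL2 carry the number of a sample title, and KO3, whose number is in no title, was placed in P1KO without a sample number. The members and lists were chosen with earlier results of these data known. The reference gene table (GRCm38.p6, 49997 genes) holds no Ensembl identifiers, 0 of the 54532 identifiers were matched by it, and the names of the 4 receptors were given with their identifiers. The lists of ligands, conventional receptors, neighbours and cell type markers, and Pofut1, are therefore not analysed here, and no sequence is shown.

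Counts were analysed with edgeR 4.0.16 in R 4.3.3 (filterByExpr, 15510 genes, TMM, quasi-likelihood F-test, no covariate, Benjamini-Hochberg adjustment over all tested genes). CPM use TMM-scaled library sizes, log2 CPM a prior count of 2, and the SE is the absolute log2 fold change divided by the square root of F. The 95% intervals are exact binomial and cover counting error only. Named genes were the 4 receptors and those nearest in pattern, 5 for Ackr1 and 3 for each of the others. Of these, 2 that were higher and 1 that was lower are printed. Alternatives were other scalings and filters, DESeq2 1.42.0, limma-voom (limma 3.58.1), each library left out on the same genes, and, chosen after seeing the data, summed reads. The fits were tested on simulated data.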

Additional observations from a re-analysis of the deposited data

How the results depend on the processing

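The 7 other ways of scaling, filtering, testing or pooling the counts moved the log2 fold change of each receptor by at most 0.02, less than the spread between replicate libraries, to ranges of 2.55 to 2.57 for Ackr1, 0.57 to 0.59 for Ackr2, 0.59 to 0.61 for Ackr3 and -0.50 to -0.47 for Ackr4. With 1 library left out, the log2 fold changes ran from 2.54 to 2.59 for Ackr1, 0.54 to 0.63 for Ackr2, 0.54 to 0.68 for Ackr3 and -0.64 to -0.33 for Ackr4. The last of these is the one that moved by more than its replicate spread, without KO1. Over the whole table, 1501 genes were called higher and 1526 lower with edgeR, and 810 higher and 823 lower without a filter on low counts, where 26155 genes were tested. Leaving out 1 library gave 54 to 2675 genes higher and 66 to 2716 lower, with the fewest in either direction without CTL2 and the most without KO1, and a library left alone in its group was assumed to vary as the remaining pair did. No paired analysis was possible because the table's columns share fewer than 2 replicate numbers between the groups (KO3 carries a number that no CTL column has). The alternatives for the gene lists were not run, since the lists could not be matched to the table. With 324 to 515 reads per library, Ackr4 was the receptor most limited by depth.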
